A study of Mus musculus with 8 samples.

Results

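Transcript levels of induced pluripotent stem (iPS) clones made with 4 factors (4F) were set against those of mouse embryonic fibroblasts (MEF), the connective-tissue cells of the embryo. The comparison takes 4 of the 8 libraries of the series, namely both 4F libraries and both MEF libraries. The 4F libraries are clones that were derived independently, so each stands for a single line, and the MEF libraries are biological replicates. The labels give no treatment for either group and both are of the BALB/c strain, so strain does not differ between them. In this field 4F commonly stands for Oct4, Sox2, Klf4 and c-Myc, but the labels do not spell out the factors of these clones or how they were delivered. The other libraries, D3 GFP embryonic stem (ES) cells of the 129S2/SvPas background and clones made with fewer factors plus IL6, did not enter the main test. No label states passage, sex or the growth layer. P-values set the group difference against the spread between replicates of these samples. That spread was pooled over both groups and drawn toward the trend over all genes.

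A fibroblast is a migratory cell of mesenchymal type. It secretes collagen, pulls on it with actin and myosin, and keeps a record of its position in the body through Hox genes. Forced expression of Oct4, Sox2, Klf4 and c-Myc can convert it to a pluripotent cell, which grows in tight epithelial colonies, divides with a short G1 phase and can form the tissues of an embryo. The loss of mesenchymal genes and the gain of epithelial junctions come early in this conversion, and the gain of the cell's own pluripotency network comes late. The labels do not say whether the MEF samples are the cells from which these clones were made, and no stage in between was measured.

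Levels are the deposited values, taken to be RPKM, that is, read numbers divided by gene length and library depth. Genes with at least 1 RPKM in at least 2 of the 4 libraries were tested, which were 12704 of 23389 symbols. A gene under 1 RPKM in both libraries of 1 group passed only through the other group. Counts of list members that rose or fell are descriptions for that reason. The difference of a gene is 4F minus MEF on the log2(RPKM + 1) scale, on which changes of weakly expressed genes come out smaller than they are. Where 2 pairs of values are joined by "against", the first pair is 4F clones 1 and 2 and the second MEF 1 and 2. A gene is said to rise, fall, or be higher or lower in 4F clones where limma gave an adjusted p under 0.05 and the groups did not overlap. With this rule 11183 genes, or 88.0% of those tested, changed, of which 6436 (50.7%) rose and 4747 (37.4%) fell. Groups did not overlap for 94.2% of the genes. Since most genes changed, a stricter call is given beside it: past 2-fold means that limma's treat test placed the difference beyond 1 log2 unit, which held for 4646 genes (36.6%), 2634 of them higher (20.7%) and 2012 lower (15.8%) in 4F clones. The median difference over the genes tested was 0.23. It was 0.01 when each library was rescaled to the same sum, and the share of rises among the changes then moved from 57.6% to 50.0%. Past 2-fold, the majority turned: 2441 genes were higher and 2632 lower after rescaling, and 2171 higher and 2341 lower after quantile normalization, so the shares of 20.7% and 15.8% hold for the values as deposited.

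**Figure D1:**
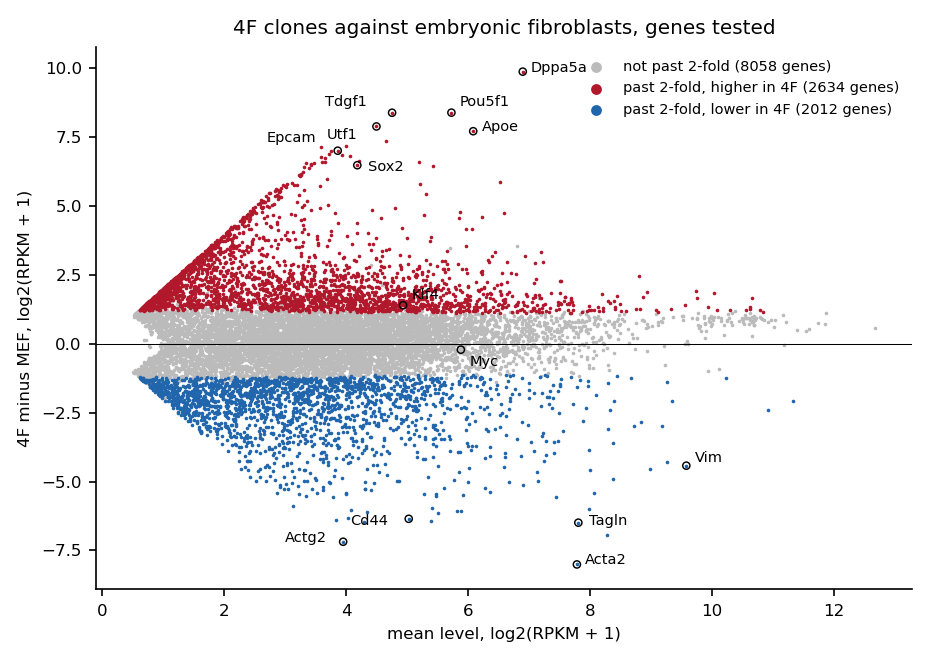
Difference between 4F clones and MEF against the mean level for the 12704 genes tested, both axes in log2(RPKM + 1), 1 point a gene. Red and blue points are the 2634 and 2012 genes past 2-fold, and Dppa5a and Acta2 mark the ends of the range at 9.88 and −8.01.

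The replicates were close, and the clones were estimated to be less deep than MEF. The step between low values gave estimated depths of 11700000 and 12600000 reads for the 4F clones and 17800000 and 18200000 for MEF. These depths are rough, since the steps did not give whole reads. The median absolute difference between replicates was 0.101 log2 units for the clones and 0.05 for MEF, against 0.91 between the groups. A gap of at least 1 log2 unit between replicates was found for 50 genes in the clones and 64 in MEF, of which 42 and 58 are small or histone RNAs, and 5831 genes had such a gap between the groups. Just inside the level filter were Eid3 (1.001 RPKM in MEF 1) and Fsd1l (1.001 in MEF 1), and just outside were Abi3bp (0.999 in MEF 1) and Gzmm (0.999 in 4F clone 1).

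Defining markers went with the labels. The 8 pluripotency markers Nanog, Esrrb, Zfp42, Dppa5a, Utf1, Tdgf1, Sall4 and Lin28a were each at least 25.1 RPKM in the clones and at most 3.62 in MEF. Of the 10 fibroblast markers Col1a1, Col1a2, Col3a1, Thy1, Pdgfra, Pdgfrb, Twist1, Prrx1, Postn and Dcn, each was lower in the clones, although Dcn differed by −0.30. Markers of other cell types were summed within each library. The 8 endoderm markers summed to 3.88 to 4.96 RPKM in the clones and 1.79 to 1.84 in MEF, and the 6 mesoderm markers to 2.02 to 2.34 RPKM in the clones and 2.16 to 2.34 in MEF, with the mesoderm gene T listed at 0 in 3 of the 4 libraries. The 8 muscle markers summed to 2.82 to 2.9 RPKM in the clones and 31 to 31.4 in MEF, of which the skeletal actin gene Acta1 made up most in MEF (1.35 and 1.15 against 25.8 and 26 RPKM). Neural markers (8) gave 33 to 34.5 RPKM in the clones and 40.2 to 41.7 in MEF, keratinocyte markers (5) 28.1 to 30.9 RPKM in the clones and 7.3 to 8.07 in MEF, and trophoblast markers (8) 29.6 to 30.8 RPKM in the clones and 4.98 to 4.99 in MEF. The 9 endothelial markers summed to 34.1 to 36.8 RPKM in the clones and 2.33 to 2.51 in MEF, 5 of them past 2-fold higher and 1 lower. Pecam1, an endothelial adhesion gene that pluripotent mouse cells also express, was at 24.6 and 23.5 RPKM in 4F clones 1 and 2 and at 0.0503 and 0.0328 in MEF 1 and 2, while Cdh5, which defines endothelium, was at most 0.125 RPKM. The 11 macrophage and blood markers summed to 116 to 128 RPKM in the clones and 8.38 to 8.7 in MEF, and 3 of them were past 2-fold higher and 8 below the filter. Laptm5 was at 71.9 and 64.3 against 0.325 and 0.546 RPKM, Cd68 at 31.5 and 33.3 against 2.73 and 2.84 and Lyz2 at a mean of 17.7 ± 2.06 (SD, n = 2) against 3.17 ± 0.173, while Ptprc, the pan-leukocyte gene, was at most 0.0561 RPKM in the 4 libraries. The part of these other markers in the results that follow was not tested. In bulk libraries, fewer cells of a type and less RNA per cell cannot be told apart.

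All 4 reprogramming factors could be measured, and Pou5f1, the gene of Oct4 (chromosome 17, 35506018 to 35510772 in mm10), showed the largest change among them. It was at 1003 and 939.6 RPKM in 4F clones 1 and 2 and at 1.88 and 1.88 in MEF 1 and 2. The clones were thus higher by 8.40 log2 units (limma, SE 0.049, adjusted p = 2.5e-07). Sox2, which binds DNA together with Oct4, was at 164 and 177 RPKM in 4F clones 1 and 2 and at 1.09 and 0.754 in MEF 1 and 2, a difference of 6.49. For both genes the groups lay far apart. Klf4, a zinc-finger factor that fibroblasts also express, was at 49.2 and 48.3 RPKM in 4F clones 1 and 2 and at 18.1 and 17.5 in MEF 1 and 2, and rose by 1.40 (limma treat adjusted p = 0.00064). Myc went the other way, at 53 and 54.6 RPKM in 4F clones 1 and 2 and at 62.4 and 62.4 in MEF 1 and 2, and fell by 0.21 (SE 0.041, limma adjusted p = 0.0043). The groups did not overlap, but the fall of Myc did not pass the test without either MEF library (−0.21 in both cases) or in fits with more libraries. Reads of a delivered factor and of the cell's own gene are not separated in these values.

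The pluripotency network is a set of transcription factors that sustain each other's expression, together with their target genes. All 34 members measured rose and 33 were past 2-fold, with a median of 4.70 against 0.23 over all genes. Dppa5a, an RNA-binding protein gene, had the largest rise of all genes tested, at 3666 and 3599 RPKM in 4F clones 1 and 2 and at 2.2 and 3.62 in MEF 1 and 2 (difference 9.88, SE 0.17, limma adjusted p = 6.4e-07). Tdgf1, which encodes the Nodal co-receptor Cripto, was at 463 and 523 RPKM in 4F clones 1 and 2 and at 0.349 and 0.597 in MEF 1 and 2 (8.39). Utf1, a chromatin-bound factor of pluripotent cells, was at 386 and 311 RPKM in 4F clones 1 and 2 and at 0.393 and 0.529 in MEF 1 and 2 (7.89). In each of these genes both clones were far above both MEF libraries. Nanog, a homeobox factor of the core network, rose by 6.81 (169 and 181 against 0.462 and 0.694 RPKM), and Zfp42, also called Rex1, by 7.19 (180.4 and 205 against 0.343 and 0.305). Smaller rises were those of factors that MEF also expressed: Klf2 was at 34.8 and 31.2 RPKM in 4F clones 1 and 2 and at 21.7 and 20.2 in MEF 1 and 2 and was the member not past 2-fold (0.63), and Klf5 rose by 1.27 (44.5 and 43.8 against 18 and 17.3). Tcf7l1, a repressor at Wnt targets, rose by 1.30 and Tbx3, a T-box factor, by 1.67. The RNA-binding genes Lin28a and Lin28b, which block maturation of the let-7 microRNAs, rose by 6.24 and 1.94, with Lin28a at 83.5 and 85.9 against 0.143 and 0.125 RPKM and Lin28b at 2.34 and 3.64 against 0.0306 and 0.0199. Mycn, a relative of Myc, rose by 3.80 (27.2 and 28.1 against 0.922 and 1.2 RPKM), unlike Myc itself.

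Genes of the later, primed state of pluripotency, that of the epiblast after implantation, were mixed. Of 10 tested, 8 rose and 2 fell, 6 and 1 of them past 2-fold (60.0% and 10.0%, against 20.7% and 15.8% of all genes). The de novo DNA methyltransferase gene Dnmt3b was at 86.4 and 85.2 RPKM in 4F clones 1 and 2 and at 0.626 and 0.65 in MEF 1 and 2 (5.73). Dnmt3a, its relative, rose by 2.25 (16.3 and 16 against 2.55 and 2.67 RPKM). Otx2, a homeobox gene of the epiblast and forebrain, rose by 4.78 (27.1 and 27.5 against 0.0652 and 0 RPKM), and Pou3f1 by 3.99 (16.8 and 14.8 against 0.0922 and 0.018). The factor genes Zic2, Foxd3, Lef1 and Sox11 rose by 2.84, 1.41, 0.87 and 0.84. Against them, Sox4 fell by 2.95 (5.75 and 6.21 against 53.8 and 52 RPKM) and Fgf5, a growth factor of the epiblast that fibroblasts also make, by 1.29 (0.646 and 0.478 against 2.51 and 3.15). The streak gene T was below the filter.

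Epithelial genes, which build the junctions of cell sheets, were higher in the clones. Of 33 epithelial genes, 32 rose and 27 were past 2-fold, with a median of 3.60. Cdh1 (chromosome 8, 106603351 to 106670246), the gene of E-cadherin, which joins neighbouring epithelial cells, was at 123 and 115 RPKM in 4F clones 1 and 2 and at 0.288 and 0.184 in MEF 1 and 2. Epcam, a surface adhesion gene, was at 167 and 162 RPKM in 4F clones 1 and 2 and at 0.19 and 0.372 in MEF 1 and 2 (7.01, limma adjusted p = 3.5e-07). The tight-junction genes Cldn4 and Cldn6 rose by 6.91 (152 and 135 against 0.248 and 0.152 RPKM) and 6.58 (104 and 93.1 against 0.0375 and 0.0367). MEF had almost no transcript of these genes. The same was seen for regulators of epithelia, with Elf3 at 51.4 and 47.9 against 0.028 and 0.0274 RPKM, Grhl2 at 15.5 and 15.6 against 0.0111 and 0.0218 and the splicing regulator gene Esrp1 at 17.5 and 16.7 against 0 and 0.028. Keratins differed from one another: Krt8 rose by 3.53 (30.1 and 29.5 against 1.71 and 1.64 RPKM) and Krt18 by 1.60 (19 and 17.5 against 5.62 and 5.06), while Krt19 was at 23.7 and 20.5 RPKM in 4F clones 1 and 2 and at 24.7 and 26.5 in MEF 1 and 2 and did not pass the test (difference −0.21, limma adjusted p = 0.061); it was lower in the clones after each rescaling and without 4F clone 1 (−0.31). Pkp2 and Jup, plaque genes of desmosomes, were already at 20 RPKM or more in MEF (Pkp2 26.7 and 26 against 21.4 and 21.2, Jup 41.5 and 37.2 against 26.7 and 27.8) and rose by 0.29 and 0.51. The rise of Pkp2 became 0.05 and did not pass the test when libraries were rescaled to the same sum.

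Transcription factors of the mesenchymal state moved the opposite way. Of 24 tested, 21 fell, 18 of them past 2-fold, and 3 rose, with a median of −2.66; 7 more were below the filter. Prrx1, a homeobox gene of limb and skin mesenchyme, was at 4.23 and 4.17 RPKM in 4F clones 1 and 2 and at 163 and 165 in MEF 1 and 2, a difference of −4.99. Osr1 differed by −4.07 (0.252 and 0.211 against 19.9 and 19.5 RPKM), Tbx15 by −4.05 (0.795 and 0.638 against 27.3 and 27.5), and Snai2, the repressor also called Slug, by −3.76 (0.967 and 1.26 against 26.6 and 28.8). Zeb2, a repressor of Cdh1, was at 0.434 and 0.384 against 13.4 and 13.1 RPKM and its relative Zeb1 at 1.89 and 2.59 against 13.1 and 12.5. In each case both clones were below both MEF libraries. Among those that rose were Mkx (0.53, 1.28 and 1.99 against 0.901 and 0.712 RPKM) and Nfatc4 (0.29). Without 4F clone 2 Mkx differed by 0.34 and without MEF 2 by 0.46, and without 4F clone 1, MEF 1 or MEF 2 Nfatc4 differed by 0.20, 0.26 and 0.33; none of these passed. Mkx was also lost after quantile normalization (0.15), and Nfatc4 after quantile normalization (0.21), centring (0.21) and rescaling (0.07), which left 1, 2 and 2 rises in the list.

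**Figure D2:**
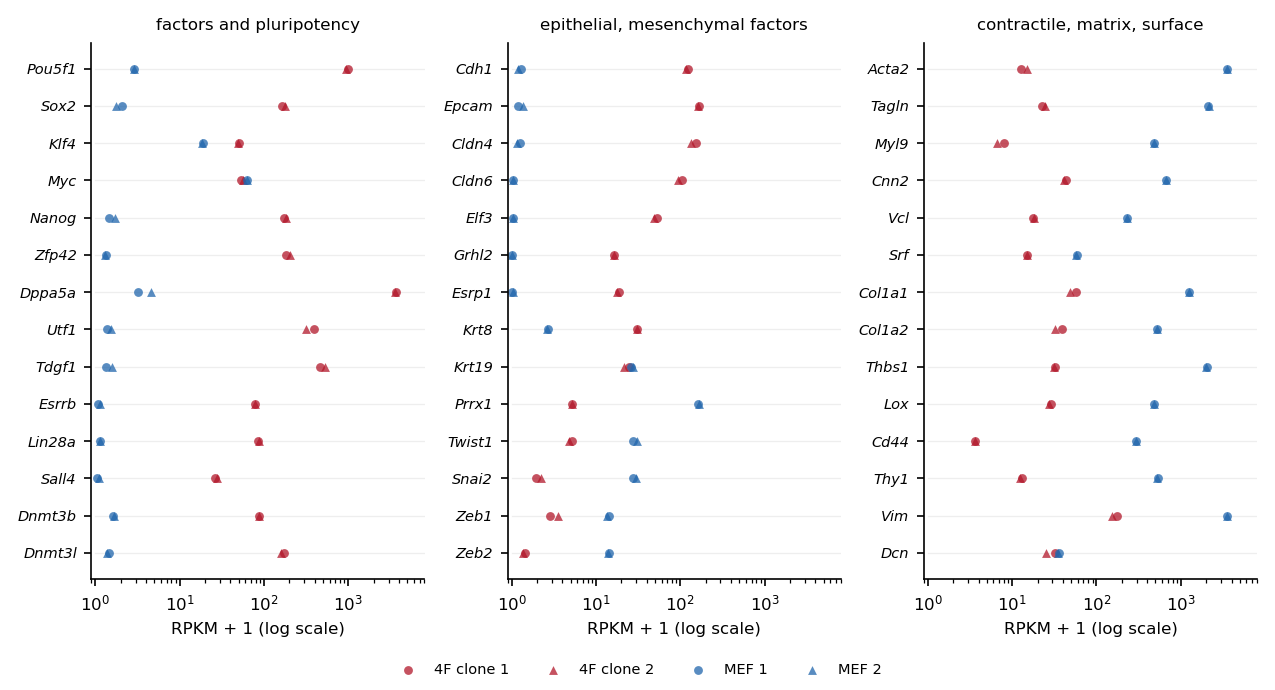
Level of 42 genes in each of the 4 libraries, as RPKM + 1 on a log axis, with red for 4F clones, blue for MEF, circles for clone or replicate 1 and triangles for 2. Pluripotency and epithelial genes lie to the right in the clones and contractile and matrix genes to the right in MEF, while Myc, Krt19 and Dcn lie close together.

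The actin genes Acta2 and Actg2 had the largest falls of the genes tested. They belong to the contractile and actin genes, a list around the actin stress fibres with which a fibroblast spreads and pulls. Of 29 contractile genes, 28 fell and 26 were past 2-fold, with a median of −3.33. Acta2 (chromosome 19, 34241090 to 34255590), the smooth-muscle actin gene of contractile fibroblasts, was at 11.7 and 13.8 RPKM in 4F clones 1 and 2 and at 3562 and 3499 in MEF 1 and 2 (difference −8.01, SE 0.077, limma adjusted p = 2.9e-07). The clones therefore had 0.362% of the MEF level. Actg2, another smooth-muscle actin, was at 0.455 and 0.122 RPKM in 4F clones 1 and 2 and at 182 and 187 in MEF 1 and 2, Tagln, an actin-binding gene, at 21.7 and 23.6 RPKM in 4F clones 1 and 2 and at 2116 and 2131 in MEF 1 and 2, and Myl9, a myosin light chain, at 6.93 and 5.54 RPKM in 4F clones 1 and 2 and at 483 and 479.8 in MEF 1 and 2. These 3 were at 0.156%, 1.07% and 1.3% of MEF. The non-muscle myosin gene Myh9 was at 19.5% of MEF and Cnn3, a calponin, at 59.8%. Des, the muscle filament desmin, was at 12.6 and 11.2 RPKM in 4F clones 1 and 2 and at 12.5 and 12.6 in MEF 1 and 2 and did not pass the test (limma adjusted p = 0.38), except without 4F clone 1 (−0.15) and after rescaling (−0.32). Summed over the list, levels were 959 and 935 RPKM in the clones and 15258 and 15188 in MEF.

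Many contractile genes are known targets of SRF, a factor that binds the CArG box, a 10-base element with an A- and T-rich core. Promoters from RefSeq (build GRCm38.p6), running from 250 bases before to 50 after the start of the gene, were at hand for 27 of the 29 contractile genes. Of these, 4 (14.8%) held a CArG box on either strand, against 535 of the 32851 promoters of that length in the table (1.63%). The table also covers genes not tested here. Since the list was chosen for contractile genes, Srf among them, these shares do not bear on the fall. The 4 promoters are shown because they hold a CArG box, given in capitals. Their genes are among the 28 of 29 contractile genes that fell.
Cnn2 (chr10:79988350-79988649, plus strand): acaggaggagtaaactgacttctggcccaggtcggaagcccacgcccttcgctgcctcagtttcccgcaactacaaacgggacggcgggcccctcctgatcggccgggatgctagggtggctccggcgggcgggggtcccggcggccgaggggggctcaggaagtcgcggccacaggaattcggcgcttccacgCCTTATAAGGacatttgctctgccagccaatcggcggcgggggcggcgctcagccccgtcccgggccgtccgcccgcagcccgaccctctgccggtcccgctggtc
Myl9 (chr2:156775214-156775513, plus strand): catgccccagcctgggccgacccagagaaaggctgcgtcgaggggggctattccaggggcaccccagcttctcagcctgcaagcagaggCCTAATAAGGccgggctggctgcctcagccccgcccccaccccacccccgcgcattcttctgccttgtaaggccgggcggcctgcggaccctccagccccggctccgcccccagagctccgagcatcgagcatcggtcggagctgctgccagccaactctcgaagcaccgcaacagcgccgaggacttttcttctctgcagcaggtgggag
Vcl (chr14:20929148-20929447, plus strand): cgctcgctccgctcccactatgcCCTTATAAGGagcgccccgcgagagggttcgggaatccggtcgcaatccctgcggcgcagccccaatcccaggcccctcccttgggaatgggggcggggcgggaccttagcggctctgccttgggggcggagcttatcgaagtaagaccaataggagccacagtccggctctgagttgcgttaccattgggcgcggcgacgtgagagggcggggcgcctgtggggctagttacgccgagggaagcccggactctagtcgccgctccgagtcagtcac
Srf (chr17:46556113-46556412, minus strand): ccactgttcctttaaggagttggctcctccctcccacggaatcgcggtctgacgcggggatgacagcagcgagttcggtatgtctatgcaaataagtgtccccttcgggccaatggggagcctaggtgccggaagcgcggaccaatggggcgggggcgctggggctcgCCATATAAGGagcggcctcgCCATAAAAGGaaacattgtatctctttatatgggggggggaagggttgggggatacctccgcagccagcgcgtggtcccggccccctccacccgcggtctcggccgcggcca
The matches begin 56 bases before the start in Cnn2, 161 in Myl9, 227 in Vcl, and 82 and 62 in Srf. A match is a description of the letters, and a window without one says nothing of the factor. Cnn2, a calponin gene, was at 43 and 40.7 RPKM in 4F clones 1 and 2 and at 673 and 669.5 in MEF 1 and 2, Vcl, the adhesion protein vinculin, at 16.4 and 17 RPKM in 4F clones 1 and 2 and at 231 and 229 in MEF 1 and 2, and Srf itself at 13.9 and 13.9 RPKM in 4F clones 1 and 2 and at 57.5 and 56.7 in MEF 1 and 2. Their differences were −3.97, −3.70 and −1.97, each past 2-fold. Of 5 other elements searched on both strands in the same 27 promoters, ATGCAAAT was found in 1 (1.74% of the table), TGANTCA in 2 (7.81%), CACGTG in 1 (7.15%), TGACGTCA in 0 (1.79%) and TATAAA in 3 (13.6%).

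Matrix genes fell as a group, but by unequal amounts. Of 45 collagens and matrix proteins, 41 fell, 38 of them past 2-fold, and 2 rose, with a median of −3.02. Thbs1, the gene of the secreted matrix protein thrombospondin 1, was at 31.3 and 30.4 RPKM in 4F clones 1 and 2 and at 2023 and 2013 in MEF 1 and 2 (−5.99). Fibulin gene Fbln5 fell to 0.673% of MEF, and the collagen genes Col5a2 and Col12a1 to 1.93% and 2.21%. Col1a1, the main collagen of skin and bone, was at 55.7 and 47 RPKM in 4F clones 1 and 2 and at 1243 and 1232 in MEF 1 and 2, which is 4.15% of MEF. Fn1, the adhesive protein fibronectin, was retained at 39.3% (173 and 139 against 397 and 395 RPKM), and the basement membrane gene Hspg2 at 48.3%. Nid2, also of the basement membrane, rose by 2.07 (74.8 and 66.5 against 16 and 16.1 RPKM), and the fibulin gene Fbln1 by 0.49. Of 34 genes that process or cut the matrix, 27 fell and 5 rose, with 19 falls past 2-fold and a median of −2.21. Lox, which cross-links collagen, was at 28.2 and 26.7 RPKM in 4F clones 1 and 2 and at 480.4 and 478 in MEF 1 and 2, and Serpinh1, a collagen chaperone, at 42.3 and 33 against 625 and 624. The protease inhibitor Timp3 fell to 2.58% of MEF and its relative Timp1 to 14.3%. Rises were those of the hydroxylase genes P4ha1 (0.24), Plod1 (0.30) and Plod2 (0.78) and the metalloproteinase genes Mmp11 (0.58) and Mmp12 (1.23). P4ha1 did not pass without 4F clone 1 (0.17) or MEF 2 (0.19), nor Plod1 without MEF 1 (0.31) or MEF 2 (0.29).

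Surface and filament genes used to mark fibroblasts followed the matrix. Of 32, 26 fell, 25 of them past 2-fold, 4 rose and 2 did not pass the test (median −3.39). Cd44, the hyaluronan receptor, was at 2.58 and 2.64 RPKM in 4F clones 1 and 2 and at 291 and 296 in MEF 1 and 2, or 0.89% of MEF. Thy1, a surface marker lost early in reprogramming, was at 11.9 and 11.3 against 535 and 524 RPKM, the receptor kinase gene Axl at 5.9 and 5.56 against 295 and 294 and the adhesion gene Cdh2, N-cadherin, at 0.609 and 0.892 against 66.6 and 67.5. Vim, the intermediate filament vimentin, was at 175 and 154 RPKM in 4F clones 1 and 2 and at 3516 and 3556 in MEF 1 and 2, so that 4.65% of the MEF level was still measured. Lmna, the lamin that stiffens the nucleus, stood at 5.69%. Receptors for platelet-derived growth factor fell less, to 9% for Pdgfrb and 25.8% for Pdgfra. Anpep (1.79), Eng (0.76), Cd34 (0.85) and Nt5e (0.55) rose.

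A few fibroblast genes stood near their MEF level in the clones. Dcn, a small proteoglycan of connective tissue, was at 30.9 and 24.5 RPKM in 4F clones 1 and 2 and at 34.7 and 33.7 in MEF 1 and 2 (difference −0.30, limma adjusted p = 0.044). Its fall did not pass without MEF 1 (−0.28) or MEF 2 (−0.32), nor in 5 other settings, but it passed after each rescaling. Ly6a, the surface gene of Sca-1, was at 20.6 and 23.9 RPKM in 4F clones 1 and 2 and at 21.7 and 22.9 in MEF 1 and 2, and Mmp3, a metalloproteinase, at 24.7 and 22.3 RPKM in 4F clones 1 and 2 and at 25.7 and 25.4 in MEF 1 and 2. Neither passed the test of a difference (limma adjusted p = 0.95 and 0.14), but Mmp3 was lower in the clones after each rescaling and without 4F clone 1 (−0.19), and Ly6a was lower after rescaling to the same sum (−0.26). For Ly6a the clones lay on both sides of MEF. Lum, another proteoglycan, stood at 3.33 and 2.94 against 3.91 and 3.59 RPKM and Ly6c1 at 2.02 and 2.86 against 2.57 and 2.55. Lum was lower in the clones after each rescaling, and Ly6c1 without 4F clone 2 (−0.24). Side by side and untested, the ES libraries were at 0.101 and 0.0707 RPKM for Dcn, 0.176 and 0.148 for Mmp3, 0.0305 and 0 for Lum and 3.57 and 2.5 for Ly6a. The level of the clones as a percentage of the MEF mean thus had no single value over fibroblast genes: among genes with a MEF mean of at least 5 RPKM it ran from 0.156% to 94.7% for contractile genes (median 7.27%, 27 genes) and from 0.673% to 439% for matrix genes (median 8.19%, 41 genes). The median was 6.09% for the 27 surface genes, 13.1% for the 28 remodelling genes and 4.85% for the 16 mesenchymal factors.

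**Figure D3:**
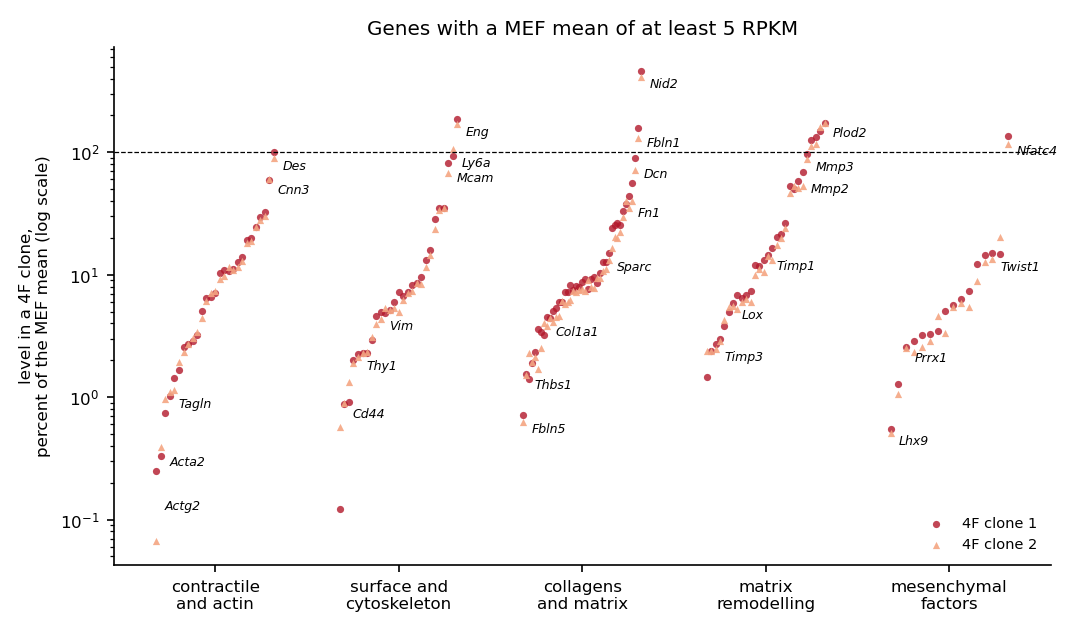
Level of each 4F clone as a percentage of the MEF mean, on a log axis, for genes of 5 fibroblast lists with a MEF mean of at least 5 RPKM, ordered within each list, with circles for clone 1 and triangles for clone 2. The dashed line marks 100%; Acta2 and Cd44 lie below 1%, Col1a1 at 4.15%, and Ly6a and Mmp3 near the line.

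Secreted immune signals were divided. Of 18 chemokine and cytokine genes, 12 fell and 6 rose. Past 2-fold, 8 were lower (44.4%) and 1 higher (5.56%), against 15.8% and 20.7% of all genes. With a filter of a mean of at least 5 RPKM in a group, 9 fell and 2 rose. Csf1, the growth factor of macrophages, was at 4.17 and 4.72 RPKM in 4F clones 1 and 2 and at 383 and 380.2 in MEF 1 and 2 (−6.14), and Il1rl1, the receptor of IL-33, at 1.28 and 1.64 RPKM in 4F clones 1 and 2 and at 171 and 165 in MEF 1 and 2 (−6.11). Il11 differed by −4.92 (1.08 and 1.03 against 60.4 and 62.1 RPKM) and the chemokine gene Ccl2 by −1.86 (19.3 and 19.7 against 74.4 and 72.1). In contrast Ccl8 was at 13 and 12.1 RPKM in 4F clones 1 and 2 and at 1.89 and 1.27 in MEF 1 and 2 (2.40), and Cxcl10, Il33, Cxcl16, Il34 and Cxcl1 rose by 1.20, 1.16, 1.12, 0.88 and 0.36. The rise of Cxcl1 did not pass without 4F clone 2 (0.28) or MEF 2 (0.31). Ccl8 was 0 in both ES libraries, a value not tested here.

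Signals of the TGF-beta family changed in kind. These ligands act through paired receptor kinases and SMAD factors; TGF-beta drives matrix production in fibroblasts, and Nodal acts in the early embryo. Of 34 genes, 28 fell and 5 rose, with a median of −2.04. Past 2-fold, 22 were lower (64.7%) and 5 higher (14.7%), against 15.8% and 20.7% of all genes. Among ligands, Tgfb3 was at 0.938 and 0.696 RPKM in 4F clones 1 and 2 and at 146 and 143 in MEF 1 and 2 (−6.33) and Inhba, the activin A subunit, at 4.95 and 6.9 RPKM in 4F clones 1 and 2 and at 467 and 459 in MEF 1 and 2 (−6.08). Tgfb1 differed by −3.43 and Tgfb2 by −2.67. Nodal went the other way, at 18.2 and 19.4 RPKM in 4F clones 1 and 2 and at 0.0267 and 0 in MEF 1 and 2 (4.29), as did its secreted inhibitors Lefty1 (44.6 and 48.4 against 1.36 and 0.819 RPKM, 4.52) and Lefty2 (92.4 and 113 against 0.0504 and 0.18, 6.53), and Bmp7 (5.28 and 6.05 against 0.0285 and 0.0278, 2.69). Bmp4 was similar in size in both, at 7.68 and 7.84 against 10.2 and 10.2 RPKM, and fell by 0.35. Of receptors, Tgfbr2 fell by 3.10 (1.7 and 1.7 against 22.5 and 21.9 RPKM) and the activin receptor Acvr2b rose by 2.98 (11.4 and 9.65 against 0.331 and 0.582). The inhibitor follistatin, Fst, was at 1.04 and 1.15 RPKM in 4F clones 1 and 2 and at 183 and 183 in MEF 1 and 2 (−6.45). The BMP-induced genes Id1 and Id3 fell to 15.2% and 3.66% of MEF.

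Genes of growth factor pathways moved in both directions. Of 36 genes of FGF, WNT and LIF signalling, 20 fell and 15 rose (median −0.48), beside 37.4% and 50.7% of all genes. Past 2-fold, 15 were lower (41.7%) and 10 higher (27.8%), against 15.8% and 20.7% of all genes. Fgf2 and Fgf7, ligands of connective tissue, were lower in the clones (Fgf2 0.128 and 0.36 against 23.9 and 20.9 RPKM, Fgf7 2.65 and 2.8 against 40.7 and 41.8). Fgf4, the autocrine ligand of pluripotent cells, was at 89.4 and 92.5 RPKM in 4F clones 1 and 2 and at 0.0366 and 0.0896 in MEF 1 and 2 (6.43), and Fgf15 at 7.21 and 9.2 RPKM in 4F clones 1 and 2 and at 0 and 0 in MEF 1 and 2. Receptor genes Fgfr1 and Fgfr2 fell by 1.19 and 1.78. Feedback genes did not move together: the inhibitors Spry2 and Dusp6 fell by 2.05 and 1.92, and the FGF-induced factor Etv5 rose by 3.19 (97.3 and 98 against 10.1 and 9.5 RPKM). In the WNT pathway, Wnt5a, a ligand that acts without beta-catenin, was at 0.765 and 1.13 RPKM in 4F clones 1 and 2 and at 44.9 and 44.1 in MEF 1 and 2 (−4.55), and the secreted inhibitor Sfrp1 rose, at 27.4 and 26.4 RPKM in 4F clones 1 and 2 and at 3.69 and 3.43 in MEF 1 and 2 (2.61). Tcf7, a DNA-binding partner of beta-catenin, rose by 3.81 (32.4 and 32.7 against 1.42 and 1.37 RPKM) and Tcf7l2 fell by 2.12 (0.522 and 0.679 against 5.72 and 6.17). LIF keeps mouse pluripotent cells undifferentiated through its receptor and STAT3. Its receptor gene Lifr rose by 1.18 (3.88 and 4.09 against 1.22 and 1.17 RPKM), the shared subunit Il6st fell by 1.37 (10.1 and 9.65 against 27.4 and 27.1), and the related receptor Osmr fell by 3.16 (0.808 and 1.2 against 17.6 and 16.1). Stat3 was at 26.4 and 24.6 against 32.7 and 31.6 RPKM and fell by 0.32, while the feedback inhibitor Socs3 was at 56.6 and 50.8 RPKM in 4F clones 1 and 2 and at 6.9 and 6.91 in MEF 1 and 2 and rose by 2.79.

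YAP and TAZ are coactivators that sense cell spreading and act through TEAD factors. Of 14 genes of this set, 12 fell and 1 rose, 10 and 1 past 2-fold, with a median of −3.59. The coactivator genes fell by less than 2-fold on this scale, with Yap1 at 37 and 37.1 against 65.9 and 68.1 RPKM (−0.84) and Wwtr1, the gene of TAZ, at 17.3 and 17.2 against 30.7 and 30.2 (−0.79). The targets Ankrd1 (1.01 and 1.17 against 139 and 135 RPKM), Ctgf (26.7 and 21.8 against 1205 and 1183) and Cyr61 (24.8 and 23.8 against 785 and 797) fell to 0.798%, 2.03% and 3.07% of MEF. Tead1 and Tead3 fell by 2.67 and 2.88, Tead2 rose by 1.20 (82.3 and 75.2 against 33.5 and 33.8 RPKM), and Tead4 did not pass the test (5.02 and 5.44 against 5.37 and 5.65 RPKM, limma adjusted p = 0.45) except after rescaling, where it was lower (−0.30). AP-1 is a pair of FOS and JUN proteins that keeps many fibroblast enhancers active. Of 16 AP-1 and immediate early genes, 13 fell and 2 rose, 11 falls past 2-fold (median −1.86). Fosl1 was at 1.77 and 1.99 against 52.4 and 51 RPKM, Fosl2 at 2.09 and 1.86 against 57.4 and 55.7, and Jun at 9.34 and 8.26 RPKM in 4F clones 1 and 2 and at 55.9 and 57.2 in MEF 1 and 2. Jund rose by 0.35, though not without MEF 2 (0.33) or after rescaling (0.11), and Ier2 by 0.45; Atf3 did not pass the test.

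**Figure D4:**
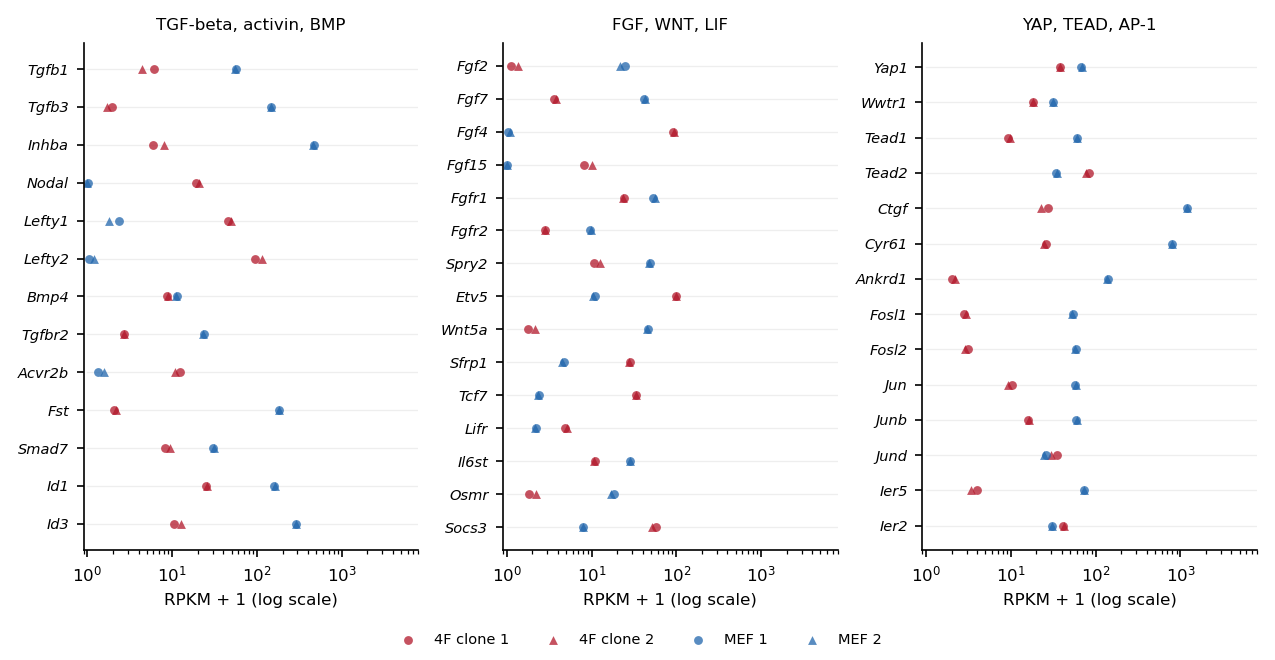
Level of 42 signalling genes in each of the 4 libraries, as RPKM + 1 on a log axis, with red for 4F clones, blue for MEF, circles for clone or replicate 1 and triangles for 2. Nodal, Lefty1, Lefty2, Fgf4, Tcf7 and Socs3 lie to the right in the clones, and Inhba, Wnt5a, Ctgf and Fosl1 to the right in MEF.

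Hox genes, which record position along the body, were low in the clones. Of 39 Hox symbols, 30 passed the level filter, and 29 of these fell, 24 past 2-fold, with a median of −1.96 and none that rose. The filter was reached mostly through MEF, so the share that fell is a description. MEF expressed genes of all 4 clusters, among them Hoxb9 (0.564 and 0.938 against 17.4 and 17.5 RPKM), Hoxc6 (1.23 and 0.953 against 17.4 and 17.4), Hoxc10 (0.177 and 0.208 against 10.5 and 10.3), Hoxd13 (1.08 and 0.954 against 12 and 11.9) and Hoxa10 (0.294 and 0.215 against 6.66 and 7.2). Hoxc13 was at 1.52 and 1.33 against 1.17 and 1.48 RPKM and did not pass the test. Summed over the 39 symbols, Hox levels were 10.3 and 9.55 RPKM in the clones and 157 and 161 in MEF. Imprinted genes, expressed from 1 parental copy, split: of 26, 16 fell and 10 rose. Past 2-fold, 12 were lower (46.2%) and 7 higher (26.9%), against 15.8% and 20.7% of all genes. The growth factor gene Igf2 was at 8.25 and 6.88 RPKM in 4F clones 1 and 2 and at 147 and 148 in MEF 1 and 2 (−4.12), its neighbour H19 at 33.4 and 32.2 against 196 and 195, and Ndn, a gene of the Prader-Willi region, at 4.21 and 5.27 against 79.7 and 79.4. In the Dlk1-Dio3 domain, Meg3 was at 2.52 and 3.65 RPKM in 4F clones 1 and 2 and at 24 and 24 in MEF 1 and 2 (−2.63), Rian at 20 and 23.9 against 118 and 117, Mirg at 1.32 and 1.18 against 6.95 and 7.18 and Dlk1 at 0.942 and 0.819 against 19.3 and 19.4. The placental growth inhibitor gene Phlda2 rose by 5.69 (63.2 and 50.4 against 0 and 0.233 RPKM), Ascl2 by 3.35, and Snrpn by 2.87 (34.9 and 35.5 against 3.95 and 3.97).

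Replication genes rose together. Of 45 origin, helicase and polymerase genes, 45 rose and 36 were past 2-fold, with a median of 1.79; 43 rose after rescaling, centring or quantile normalization. Gmnn, the licensing inhibitor geminin, was at 137 and 137 RPKM in 4F clones 1 and 2 and at 16.4 and 16.4 in MEF 1 and 2 (2.99) and its partner Cdt1 at 128 and 121 RPKM in 4F clones 1 and 2 and at 18.1 and 17.8 in MEF 1 and 2 (2.73). Lig1, which joins DNA ends at the fork, and the helicase subunit Mcm7 rose by 2.71 and 2.57. Rrm1, which makes deoxynucleotides, was the smallest rise, at 81.2 and 85.4 against 76.6 and 74.9 RPKM (0.13), and turned to −0.12 after rescaling and −0.01 after quantile normalization; it did not pass without MEF 1 (0.15) or MEF 2 (0.12). Cyclins moved in both directions. Of 26 cyclin, CDK and inhibitor genes, 16 rose and 7 fell. Past 2-fold, 7 were higher (26.9%) and 4 lower (15.4%), near the 20.7% and 15.8% of all genes. Ccne1, the G1 to S cyclin E1, was at 173 and 184 RPKM in 4F clones 1 and 2 and at 30.3 and 29.8 in MEF 1 and 2 (2.53), and Ccnd2 was at 3.88 and 4.08 RPKM in 4F clones 1 and 2 and at 105 and 101 in MEF 1 and 2 (−4.38). Ccnd1 fell by 1.92 (27.9 and 30.6 against 114 and 112 RPKM) and Ccnd3 rose by 1.39 (181 and 168 against 66 and 66.2). Inhibitors did not go together either. Cdkn1a, the gene of p21, was at 82.5 and 72.5 RPKM in 4F clones 1 and 2 and at 208 and 208 in MEF 1 and 2 (−1.41), Cdkn2b was at 11.2 and 9.44 against 18.2 and 19.3 (−0.81), and Cdkn2a, the gene of p16 and p19Arf, was at 44.9 and 39 RPKM in 4F clones 1 and 2 and at 18.9 and 21.2 in MEF 1 and 2 and rose by 1.03.

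Targets of p53, the stress-induced tumour suppressor, were divided. Among 23 of them and senescence genes, 13 were higher and 9 lower (median 0.59), beside 50.7% and 37.4% of all genes. Past 2-fold, 7 were higher (30.4%) and 5 lower (21.7%), against 20.7% and 15.8% of all genes. Among those higher in the clones, Bbc3, the gene of PUMA, was at 49.1 and 40.4 RPKM in 4F clones 1 and 2 and at 4.05 and 4.43 in MEF 1 and 2 (3.12), Pmaip1, the gene of NOXA, at 75.6 and 75.2 against 10.8 and 10.3 (2.72), Gadd45a at 46.2 and 45.1 against 4.17 and 4.27 (3.16) and Trp53inp1 at 62.2 and 66.1 against 6.83 and 6.61 (3.08). Trp53 itself was at 145 and 141 against 78.1 and 83.1 and rose by 0.82. Igfbp5 and Igfbp7, secreted proteins of senescent fibroblasts, fell to 1.48% and 9.89% of MEF. Mdm2, Ccng1 and Plk2 fell by 0.38, 1.21 and 1.55.

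Of 11 genes of DNA methylation, 8 rose and 1 fell, 7 rises past 2-fold (63.6%, against 20.7% of all genes). Dnmt3l, a cofactor of the de novo enzymes that is nearly silent in somatic cells, was at 169.5 and 156 RPKM in 4F clones 1 and 2 and at 0.464 and 0.363 in MEF 1 and 2 (6.86). Tet1, which oxidises methylcytosine, was at 31.1 and 31.8 against 0.16 and 0.171 RPKM (4.80) and Tet2 at 8.43 and 9.85 against 0.759 and 0.631 (2.58), while Tet3 fell by 0.76 (1.39 and 1.71 against 3.39 and 3.23). The maintenance enzyme gene Dnmt1 rose by 1.34 and its guide Uhrf1 by 2.64. Tdg, a repair enzyme gene that removes oxidised bases, rose by 0.88, and Uhrf2 (17.8 and 17.9 against 19.2 and 18.7 RPKM) and Gadd45b (39.9 and 35.1 against 42.5 and 42.4) did not pass the test. Uhrf2 was lower in the clones after quantile normalization (−0.17), centring (−0.16) and rescaling (−0.33), which with Gadd45b made 3 falls. Gadd45b was lower without 4F clone 1 (−0.27), without 4F clone 2 (−0.09), with the replicate block (−0.18) and after each rescaling. Polycomb complexes repress developmental genes. Of 23 Polycomb and histone demethylase genes, 18 rose and 5 fell. Past 2-fold, 12 were higher (52.2%) and 2 lower (8.7%), against 20.7% and 15.8% of all genes. Cbx7, a chromodomain subunit, was at 43.9 and 45.2 RPKM in 4F clones 1 and 2 and at 0.979 and 1.03 in MEF 1 and 2 (4.50), whereas its relative Cbx8 fell by 1.19 and Bmi1 by 1.79 (3.13 and 3.69 against 14 and 14.5 RPKM). The PRC2 partners Jarid2 (46.4 and 49.5 against 2.42 and 2.66 RPKM, 3.79) and Mtf2 (64.3 and 72.8 against 5.65 and 5.28, 3.42) rose, as did the core subunits Ezh2 (2.01), Eed (2.07) and Suz12 (1.85). Of 18 subunits of the BAF remodelling complex, 11 rose and 7 fell, 3 and 3 past 2-fold (16.7% each), near the 20.7% and 15.8% of all genes. Smarcc1 rose by 1.18 (62.4 and 64.6 against 28.2 and 26.9 RPKM) while its paralog Smarcc2 fell by 1.61 (6.4 and 6.33 against 21 and 22). In the Smarcd family, Smarcd1 rose by 1.88 (42.3 and 42 against 10.8 and 10.5) and Smarcd3 fell by 2.21 (1.08 and 1.66 against 10 and 9.72).

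RNA-binding regulators of splicing split in direction. Of 18 tested, 9 fell and 7 rose, though single members differed widely. Past 2-fold, 5 were lower (27.8%) and 3 higher (16.7%), against 15.8% and 20.7% of all genes. Mbnl1, which favours splice forms of differentiated cells, was at 0.893 and 1.24 RPKM in 4F clones 1 and 2 and at 58.9 and 60.5 in MEF 1 and 2 (−4.88), and Mbnl2 fell by 2.28 (11.3 and 13 against 62.5 and 63.3 RPKM). Rbpms2 was at 156 and 146 RPKM in 4F clones 1 and 2 and at 9.96 and 10.7 in MEF 1 and 2 (3.75), and Rbm47 rose by 2.33 (9.21 and 9.5 against 1.07 and 1.05). Among 14 telomere genes, 13 rose, 7 past 2-fold (50.0%, against 20.7% of all genes), and none fell. After rescaling, 9 rose and 1 fell. Terf1, a subunit of the complex that caps telomeres, was at 74.7 and 82.4 RPKM in 4F clones 1 and 2 and at 10.8 and 9 in MEF 1 and 2 (2.87), and the telomerase gene Tert at 6.51 and 5.91 RPKM in 4F clones 1 and 2 and at 1.55 and 1.42 in MEF 1 and 2 (1.53).

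Genes of sugar use were higher in the clones. Of 25 glycolysis genes, 23 rose and 1 fell, with a median of 1.70. Past 2-fold, 17 were higher (68.0%) and 1 lower (4.0%), against 20.7% and 15.8% of all genes. The glucose transporter gene Slc2a3 was at 361 and 362 RPKM in 4F clones 1 and 2 and at 2.53 and 2.92 in MEF 1 and 2 (6.61). The aldolase genes Aldoc and Aldoa both rose, Aldoc by 4.73 (46 and 39.9 against 0.76 and 0.549 RPKM) and Aldoa by 1.83 (2114 and 1856 against 557 and 553), while Eno3, the muscle enolase, fell by 2.26 (9.02 and 7.17 against 41.2 and 43.6). Pdk1, a kinase that holds pyruvate back from mitochondria, rose by 4.34 (29.2 and 34.3 against 0.547 and 0.69), and Gapdh, often taken as a reference, by 1.12 (5746 and 5328 against 2538 and 2544). Of 18 genes of threonine, serine and one-carbon metabolism, 15 rose and 2 fell. Past 2-fold, 7 were higher (38.9%) and 1 lower (5.56%), against 20.7% and 15.8% of all genes. Mouse pluripotent cells break down threonine through threonine dehydrogenase, whose gene Tdh was at 51.1 and 61.9 RPKM in 4F clones 1 and 2 and at 0.0596 and 0.0583 in MEF 1 and 2 (5.76). The glycine cleavage genes Gldc and Amt rose by 6.76 (131 and 129 against 0.177 and 0.23 RPKM) and 5.05 (54.5 and 56.7 against 0.942 and 0.502). Mat2a, which makes the methyl donor, fell by 2.33 (17.5 and 26 against 113 and 111). Ribosomal protein genes rose by a small amount: of 80, 79 rose and 8 were past 2-fold, against 20.7% of all genes, with a median of 0.88. After quantile normalization 70 rose and 1 fell, with 1 past 2-fold and a median of 0.39; past 2-fold were 5 after centring and 2 after rescaling. They made up 25.7% and 25.1% of the RPKM sum in the clones and 16.4% and 16.5% in MEF. Rpl10l, a copy of Rpl10 known from testis, stood apart at 151 and 153 RPKM in 4F clones 1 and 2 and at 0.168 and 0.219 in MEF 1 and 2 (7.0); reads shared with near-identical copies were not resolved here.

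Germline genes, several of which DNA methylation silences in somatic cells, were detected in the clones and close to 0 in MEF. Of 20 that passed the filter, 19 rose and 1 fell, 16 rises past 2-fold; 19 were under 1 RPKM in both MEF libraries and so passed through the clones, and the share is a description. Rhox5, an X-linked homeobox gene, was at 117 and 131 RPKM in 4F clones 1 and 2 and at 0.146 and 0.142 in MEF 1 and 2 (6.77). Hormad1 and Sycp3, proteins of meiotic chromosomes, were at 31.3 and 37.2 against 0 and 0.0365 RPKM for Hormad1 and 28.4 and 30.8 against 0.207 and 0.354 for Sycp3, and the RNA-binding gene Dazl at 3.98 and 4.39 against 0.0943 and 0.0923. Tdrkh fell by 0.71 (1.99 and 1.67 against 3.38 and 3.9). Of 29 interferon response genes, 22 rose and 5 fell. Past 2-fold, 13 were higher (44.8%) and 1 lower (3.45%), against 20.7% and 15.8% of all genes. Ifitm1 was at 43.1 and 42.3 RPKM in 4F clones 1 and 2 and at 1.39 and 1.02 in MEF 1 and 2 (4.31), Psmb9, an immunoproteasome subunit, at 15.5 and 13.8 against 0.217 and 0.424, and the antiviral gene Bst2 at 249 and 204 against 27.8 and 27.5. Ifit2, Ifih1, Isg15, B2m and Ifit1 fell, with Ifit2 at 0.443 and 0.496 against 6.05 and 5.67 RPKM (−2.22) and Isg15 at 4.34 and 5.44 against 10 and 10.2 (−0.92).

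Beyond these lists, the 10 largest rises also took in Apoe, a lipid carrier gene, at 1022 and 944 RPKM in 4F clones 1 and 2 and at 3.23 and 4.13 in MEF 1 and 2 (7.72), and Bex1, an X-linked adaptor gene, at 321 and 326 RPKM in 4F clones 1 and 2 and at 0.862 and 1.06 in MEF 1 and 2 (7.37). The 10 largest falls also held Prss23, a serine protease gene, at 3.29 and 3.77 RPKM in 4F clones 1 and 2 and at 388 and 388 in MEF 1 and 2 (−6.42), and Sdpr, a gene of caveolae, at 0.52 and 0.592 RPKM in 4F clones 1 and 2 and at 127 and 130.3 in MEF 1 and 2 (−6.38). At least 5 RPKM in both clones with at most 0.1 in both MEF libraries was found for 185 genes, and the reverse for 19. Among the latter are Hoxb2, Hoxb6, Egr2 and Lhx9. Of 470 genes on the X chromosome, 151 (32.1%) were past 2-fold upward, against 20.7% of all genes and 15.7% to 25.4% on single autosomes, while 60 (12.8%) were past 2-fold downward. Of X-linked regulators, Rlim rose by 0.79 (43.6 and 44.1 against 25.3 and 24.5 RPKM) and Tsx by 1.90 (3.23 and 3.03 against 0.143 and 0.0698). Xist, the RNA that coats an inactive X, was below the filter, at 0.743 and 1.16 against 0.0122 and 0.00598 RPKM.

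RNAs that lack a poly-A tail moved with the comparison and also split the MEF pair. Rmrp, the RNA of an RNase complex, was at 262 and 249.6 RPKM in 4F clones 1 and 2 and at 4.12 and 90.4 in MEF 1 and 2 (difference 3.57, limma adjusted p = 0.043), Rpph1 at 119 and 107 RPKM in 4F clones 1 and 2 and at 1.31 and 44.1 in MEF 1 and 2 (limma adjusted p = 0.051) and Rn45s, the ribosomal precursor, at 229.7 and 239 RPKM in 4F clones 1 and 2 and at 41 and 133 in MEF 1 and 2. Of 5 such RNAs tested, 4 rose and none was past 2-fold. The count of rises was 2 with no level filter or with all 8 libraries in the fit, 3 with a pseudocount of 0.1, and 1 without either clone. With no filter, the limma adjusted p was 0.096 for Rmrp and 0.068 for Rn45s; with the pseudocount of 0.1 it was 0.054 for Rmrp. Rprl3 was at 55.8 and 42.9 against 2.15 and 13.9 RPKM and Terc, the telomerase RNA, at 1.66 and 2.45 against 0.315 and 0. MEF 1 was the low library in Rmrp, Rpph1, Rn45s and Rprl3. Without it the difference of Rmrp was 1.49 and that of Rpph1 1.34, against 5.65 and 5.62 without MEF 2, each of which passed the test. Without 4F clone 1 or 2, Rmrp (3.53 and 3.60), Rn45s (1.68 and 1.62) and Rprl3 (2.68 and 3.05) did not pass. Among changed genes, the widest gaps between clones were those of Mir5133 (3.05 and 0 against 10.1 and 7.91 RPKM), Mir1199 (16.7 and 4.48 against 0 and 0), Mir196a-1 (1.58 and 0 against 9.44 and 7.19), Hist1h2bh (0 and 1.56 against 3.62 and 3.44) and Mir3091 (69.6 and 29.7 against 6.3 and 14.4), which are short or lack a poly-A tail. The change of Mir3091 did not pass without 4F clone 1 (1.54), that of Mir5133 without MEF 1 (−2.15), nor that of Hist1h2bh without MEF 1 (−1.47) or MEF 2 (−1.53). The part of poly-A selection in their values was not tested.

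**Figure D5:**
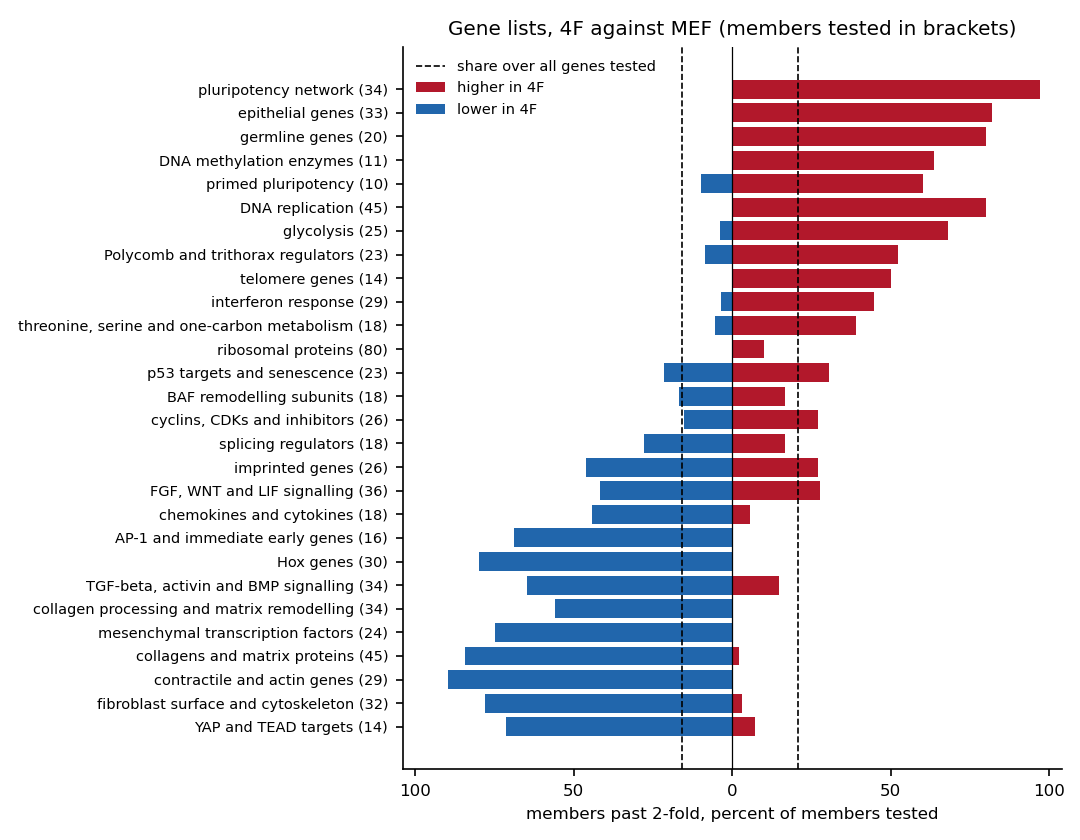
Share of the members of each gene list that were past 2-fold higher (red, to the right) or lower (blue, to the left) in 4F clones, in percent of the members tested, for lists with at least 10 tested members ordered by their median difference. Dashed lines mark the shares over all genes tested, 20.7% and 15.8%; the pluripotency network reaches 97.1% to the right and contractile genes 89.7% to the left.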

How the data were processed

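Poly-A RNA of 2 4F iPS clones and 2 MEF samples was sequenced in reads of 50 bases, per the labels' protocols. The submitters' processing notes give mm10 as the genome build. Per the file headers, which name no unit, the authors deposited 1 value per gene symbol and library, taken here to be RPKM normalized for gene length and depth by the authors. That reading rests on the size and steps of the values, and the counting tool is not given in the sources used here. The steps did not give whole reads (48.2% to 52.7% of low values within 0.1 read), so no count test was run, and the depths are estimates. One line without a number was dropped per library, and 25 symbols had been turned into dates. Symbols were placed with GENCODE, RefSeq or a synonym; 269 of 23389 found no match.

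Genes with at least 1 RPKM in at least 2 of the 4 libraries were fitted on log2(RPKM + 1) with limma 3.58.1 in R 4.3.3 (trend on, Benjamini-Hochberg adjustment over 12704 genes, treat at 1 log2 unit), and the scripts were tested on simulated data. Same-numbered libraries did not deviate together (r = −0.055 over 12704 genes), so no block was used. Genes were named by rule: the 10 largest changes each way with a mean of at least 5 RPKM, all members of lists of up to 12, up to 4 each way of longer lists, members moving against their list, 5 changed genes with the widest gap between clones, and the genes at the filter's edge. Further genes were added after their values were seen. The members and the 31 gene lists and 8 marker lists were chosen with earlier results of these data known. The fit was repeated under 12 other settings and 2 more chosen after seeing the data, namely rescaling to a common sum and a fit on the BALB/c libraries. Some genes that the rule selects are not reported here.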

Additional observations from a re-analysis of the deposited data

How the results depend on the processing

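The counts of changed genes stayed within 1.5 times of the values reported in each of the 14 alternatives, between 8657 and 13323 for changed genes and between 3734 and 5495 past 2-fold. These counts rest on different numbers of genes tested. The 8657 were of 9668 genes with a mean of at least 5 RPKM in a group, and the 13323 of 18658 with no filter. Leaving out 1 library at a time gave 10175 to 11014 changed genes and 4037 to 4647 past 2-fold; the lone library of an arm was then assumed to vary like the other arm. With the replicate number as a block, 11142 genes changed and 4635 were past 2-fold. Of 267 named genes with a test, 234 changed in each setting that could be run. The sign turned for small differences: Hoxc13 was −0.25 after quantile normalization, −0.02 after median centring and −0.10 after rescaling; Rrm1 was −0.01 after quantile normalization and −0.12 after rescaling; Fsd1l was −0.21 after quantile normalization; and P4ha1 was −0.01 after rescaling. Without 1 library, differences ran from −0.03 to 0.16 for Hoxc13, −0.11 to 0.10 for Ly6a, −0.24 to 0.12 for Ly6c1, −0.15 to 0.01 for Des and −0.0 to 0.40 for Fsd1l. The cause was not tested. With 2 libraries a group and no counts, differences of low genes rest on the pseudocount, and small shifts shared by many genes depend on the scaling.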
